A study of Arabidopsis thaliana with 2 samples.

Results

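WRKY proteins are plant transcription factors named for a conserved WRKYGQK heptapeptide followed by a zinc-binding motif, and they bind the W box, a short DNA element with the core TTGAC. Group I holds the members with 2 such WRKY domains, of which the second (C-terminal) one makes most of the contact with DNA. Perception of flg22, a peptide from bacterial flagellin, by the receptor kinase FLS2 activates MAP kinases, which phosphorylate group I factors such as WRKY33, and W boxes are frequent before genes of the immune response. The genes described here are WRKY1, WRKY2, WRKY3, WRKY4, WRKY20, WRKY25, WRKY26, WRKY33, WRKY34 and WRKY58. They were chosen by locus identifier as group I genes with 2 WRKY domains and are 10 of the 27416 genes listed in the deposited table.

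Messenger RNA was sequenced from whole seedlings of Arabidopsis thaliana, strain Columbia, at day 10 after germination. Their sample titles name them wild type (WT), and no transgene or mutation is named in the labels. The control group was untreated, and the flg22 group received flg22 at 1 µmol/L for 4 h. Each group is 1 library, for which 3 biological replicates were pooled, so no test between the groups is possible. No difference below has been checked against replicates, and none carries a p-value calculated here. The control library held 21414567 counted reads and the flg22 library 24621440. Levels are RPKM, reads scaled for the length listed per gene and for the library's total of counted reads. A fold compares reads divided by the library total. The parentheses after it hold the exact 95% counting interval, which reflects counting error alone and not the spread between plants. Log2 ratios are log2((flg22 RPKM + 1)/(control RPKM + 1)), which understates the change of weakly expressed genes, and a gene was counted as higher or lower where this ratio was at least 2-fold. FRK1 (AT2G19190), a receptor-like kinase gene and common marker of flg22 treatment, taken here to check the labels, had 84 reads in control seedlings and 8219 with flg22.

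The starts of the genes are shown first because W boxes let WRKY factors act on WRKY genes, and WRKY33 is a known case. The windows are the 300 bases before each gene's annotated start in RefSeq's annotation of assembly TAIR10.1. The authors' build is named TAIR10 and the deposited table gives no coordinates, so genes were matched by locus identifier alone. Both W box forms searched, TTGACC and TTGACT, were read on both strands, and on the opposite strand they appear as GGTCAA and AGTCAA. The window before WRKY33 (AT2G38470), at chr2:16107935-16108234 on the plus strand of TAIR10.1, is printed whole because it held the most boxes of the 10, with each box in capitals.
WRKY33: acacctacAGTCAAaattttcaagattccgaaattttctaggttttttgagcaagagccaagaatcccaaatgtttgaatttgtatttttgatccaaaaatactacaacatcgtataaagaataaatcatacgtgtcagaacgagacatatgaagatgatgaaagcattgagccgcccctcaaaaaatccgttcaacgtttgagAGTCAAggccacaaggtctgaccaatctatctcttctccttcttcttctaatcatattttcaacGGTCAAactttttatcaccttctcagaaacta
Its 3 boxes have their first base 292, 96 and 32 bases before the annotated start, all on the strand opposite to the gene.

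Boxes were also found before WRKY25, WRKY26 and WRKY20, 1 in each window, and these are printed as short stretches in the direction of the gene with the box in capitals. The stretch of WRKY25 lies at chr2:12905339-12905358 on the minus strand, that of WRKY26 at chr5:2204136-2204165 on the plus strand and that of WRKY20 at chr4:13441971-13442000 on the minus strand.
WRKY25: gaatatcttactGGTCAAcc
WRKY26: cttacacaaaaaAGTCAAacattttggtgt
WRKY20: ttggtaggtaatTTGACTcaagggcctagg
The box of WRKY25 begins 8 bases before the start, that of WRKY26 58 bases and that of WRKY20 104 bases before it. Of the WRKY25 window, 294 bases belong to a neighbouring gene, U2B'' (AT2G30260), and of the WRKY26 window 245 bases belong to AT5G07090. No box was found in the windows of WRKY1, WRKY2, WRKY3, WRKY4, WRKY34 and WRKY58, which says only that these letters are not in those 300 bases. Over 27443 genes with such a window, 32.3% held at least 1 box, 7.85% at least 2 and 1.54% at least 3. In only 7 of the windows did any boxes overlap each other. In 1000 bases WRKY33 had 4 boxes, WRKY4, WRKY20, WRKY26 and WRKY58 had 2 each, and WRKY1, WRKY3 and WRKY25 had 1 each. WRKY2 and WRKY34 had none there. Of all windows of that length, 67.3% held at least 1 box, 33.1% at least 2 and 4.64% at least 4. A match describes the sequence and does not show binding.

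Against this sequence background, 2 of the 10 genes, WRKY33 and WRKY25, were at least 2-fold higher with flg22 on the log2 scale, and none was at least 2-fold lower. WRKY26, WRKY4, WRKY1, WRKY20, WRKY2 and WRKY3 lay within 2-fold, and WRKY34 and WRKY58 had almost no reads. A filter on low values, a mean over both libraries of 1 RPKM or more, was passed by 8 of the 10 genes. The 2 higher genes are thus 25% of those 8, and among all 18724 genes past the same filter 11.3% were at least 2-fold higher and 8.27% at least 2-fold lower. The median log2 ratio of the 8 genes was 0.12, and that over all 18724 genes was -0.03, with quartiles at -0.44 and 0.42. The summed level of the 10 genes was 107 RPKM in control seedlings and 288 RPKM with flg22, and without WRKY33 it was 86.2 and 114 RPKM.

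Whole seedlings mix organs, so fewer cells of a type and less RNA per cell cannot be told apart. All 3 green tissue markers were lower with flg22, and their summed level was 13255 RPKM in control seedlings and 3835 RPKM in flg22 seedlings. Of 3 root markers, BGLU23 and CASP1 were lower and COBL9 was at 1.90 and 1.91 RPKM, with sums of 774 and 573 RPKM. These marker levels moved with the treatment, and their part in the values of the WRKY genes was not tested.

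WRKY33 is required for resistance to necrotrophic fungi and for synthesis of the phytoalexin camalexin. It was counted at 1073 reads in control seedlings and 10279 with flg22, or 20.8 RPKM (19.6 to 22.1) and 174 RPKM (170.2 to 177). The counting intervals of the libraries lie far apart, and the ratio was 8.33-fold (7.82 to 8.88), with a log2 ratio of 2.999. Of the 18724 genes past the filter, 318 had a higher log2 ratio. WRKY33 made up 19.5% of the summed RPKM of the 10 genes in control seedlings and 60.3% with flg22. In RefSeq it overlaps a long noncoding RNA gene on the other strand, AT2G08965, over 272 bases, and the coding gene AT2G38480 over 26 bases. AT2G38480 had 109 and 68 reads and AT2G08965 has no row in the table. Since no source states whether strand was kept, reads in the overlap cannot be assigned to one gene.

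WRKY25 (AT2G30250) encodes a relative of WRKY33 that, like it, associates with the MAP kinase MPK4 pathway through the VQ protein MKS1 and contributes with WRKY26 and WRKY33 to heat tolerance. It was at 552 and 1999 reads, or 13.1 RPKM (12.1 to 14.3) in control seedlings and 41.4 RPKM (39.6 to 43.2) with flg22. Its ratio was 3.15-fold (2.86 to 3.47), the other value past 2-fold, and 1185 genes had a higher log2 ratio than its 1.58. WRKY26 (AT5G07100), the further member of that heat-tolerance trio, was at 327 reads in control seedlings and 550 with flg22, which is 9.77 and 14.3 RPKM. Its ratio of 1.46-fold (1.27 to 1.68) was above 1 by more than counting error and within the 2-fold limit.

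WRKY3 and WRKY4 are a closely related pair that act in resistance to necrotrophic pathogens, and WRKY4 also lowers resistance to biotrophic bacteria. WRKY3 (AT2G03340) was at 1073 reads in control seedlings and 872 with flg22, 17.9 and 12.7 RPKM. It was therefore 1.41-fold lower (1.29 to 1.55), the lowest ratio of the 8 genes. WRKY4 (AT1G13960) went the other way by count, at 684 and 902 reads or 10.9 and 12.5 RPKM, a ratio of 1.15-fold (1.04 to 1.27). The intervals of both ratios exclude 1, on opposite sides, but with scaling by reference genes the ratio of WRKY4 was 1.04-fold (0.938 to 1.15), which holds 1. In the control library WRKY3 was above WRKY4 with intervals apart, and in flg22 seedlings their intervals overlapped. The coding sequences of the pair are 73.9% identical as DNA, and the counting rule for reads that match both is not given in the sources used here. WRKY4 overlaps AT1G13970 over 70 bases, a gene with 119 and 94 reads.

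WRKY1 (AT2G04880), described early on as a zinc-dependent activator and linked with salicylic acid signalling, was at 795 and 953 reads, or 14.1 RPKM in control seedlings and 14.7 RPKM with flg22. The ratio of 1.04-fold (0.948 to 1.15) held 1 within its counting interval. WRKY20 (AT4G26640) was at 1104 and 1257 reads, 13.7 and 13.6 RPKM, with a ratio of 0.990-fold (0.913 to 1.07). For neither gene was a difference detectable with scaling by library totals, and their direction changed with the scaling, between 0.943 and 1.07-fold for WRKY1 and between 0.895 and 1.02-fold for WRKY20. The lowest value for WRKY20, from scaling by reference genes, had an interval below 1 (0.825 to 0.972). WRKY1 shares 166 bases with SCL21 on the other strand, which had 303 and 249 reads.

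WRKY2 (AT5G56270), which with WRKY34 acts in pollen and which sets the polarity of the zygote through WOX genes, was at 510 reads in control seedlings and 465 with flg22. Its levels were 6.66 and 5.28 RPKM, the lowest of the 8 genes in both libraries, and its ratio was 0.793-fold (0.698 to 0.901). WRKY2 overlaps CSN6A over 43 bases, a gene with 804 and 964 reads. WRKY34 (AT4G26440), known from pollen as a substrate of MPK3 and MPK6, had 0 reads in both libraries. For it, 3 reads would equal 0.0717 RPKM in control seedlings and 0.0623 RPKM with flg22. WRKY34 overlaps CSN6B over 34 bases, a gene with 260 and 312 reads. Since the counting rule is not stated, the 0 does not show that WRKY34 was silent. WRKY58 (AT3G01080), implicated in systemic acquired resistance, had 3 reads in each library, and the ratio of 0.870-fold (0.116 to 6.49) leaves its direction undetermined. The pollen marker VGD1 was also at 0 in both libraries, and the 4 pollen markers summed to 1.10 and 0.792 RPKM. The 3 seed and embryo markers summed to 2.12 and 0.211 RPKM, with 2S3 at 0 in both libraries.

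**Figure D1:**
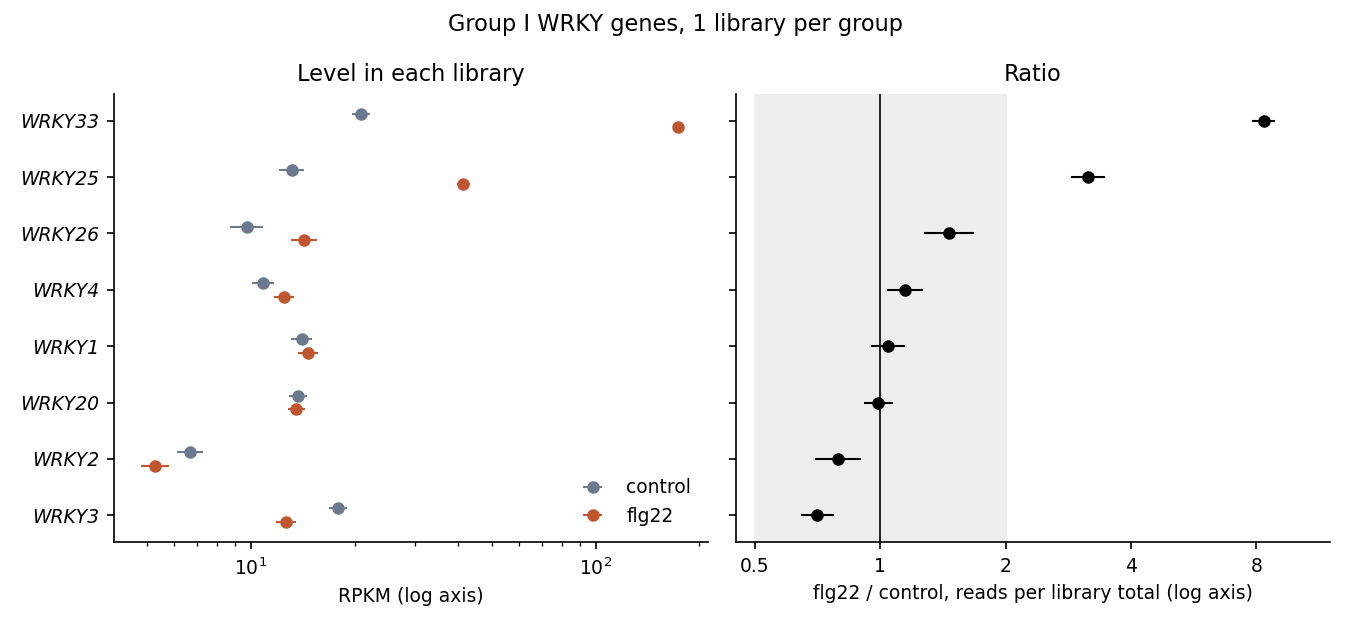
Levels of the 8 group I genes past the filter in the control and flg22 libraries (left, RPKM on a log axis) and the flg22 over control ratio of reads per library total (right, log axis); bars are exact 95% counting intervals and the grey band spans ratios within 2-fold. WRKY33 and WRKY25 lie beyond the band, WRKY26 and WRKY4 lie above 1, WRKY2 and WRKY3 below 1, and WRKY1 and WRKY20 at 1, where their side of 1 changes with the scaling.

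Counting intervals of the ratio lay above 1 for 4 of the 8 genes, below 1 for 2 and held 1 for 2. The same shares over all genes past the filter were not calculated, so this tally describes the 8 genes only. With scaling by reference genes the tally was 3 above, 3 below and 2 holding 1, as WRKY4 and WRKY20 changed class. The order of levels in control seedlings was WRKY33, WRKY3, WRKY1, WRKY20, WRKY25, WRKY4, WRKY26, WRKY2, WRKY58 and WRKY34. In that order WRKY1 and WRKY20, WRKY20 and WRKY25, WRKY4 and WRKY26, and WRKY58 and WRKY34 had overlapping counting intervals. With flg22 the order was WRKY33, WRKY25, WRKY1, WRKY26, WRKY20, WRKY3, WRKY4, WRKY2, WRKY58 and WRKY34. Every neighbouring pair from WRKY1 to WRKY4 in the flg22 order, and WRKY58 with WRKY34, had overlapping intervals. Levels depend on the listed gene length, which for 7 of the 10 genes lay nearer to RefSeq's gene span with introns than to its joined exons, and for WRKY20, WRKY26 and WRKY58 nearer to the exons. With RefSeq's joined exon length, WRKY33 was at 24.7 RPKM in control seedlings and 206 RPKM with flg22, WRKY3 was at 22.8 and 16.1 RPKM, and WRKY3 stood above WRKY26, WRKY20 and WRKY4 in flg22 seedlings. WRKY33 stayed first in both libraries with either length.

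The same pair of libraries was compared in the authors' deposited table, where WRKY33 had a log2 fold change of 3.10 and a false discovery rate (FDR) of 0.282. For WRKY25 the authors' deposited table gave a log2 fold change of 1.70, and its FDR was 1, as for every other member with a value there. WRKY34 had no value in the authors' deposited table.

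The choice of genes with 2 WRKY domains was checked on the proteins translated from RefSeq's coding sequences. Each of the 10 held 2 WRKYGQK heptapeptides, each followed by the cysteine and histidine spacing of a WRKY zinc finger. They ranged in length from 309 residues for WRKY26 to 687 residues for WRKY2. Within a protein, the first and second domain were 50% identical in WRKY26, the lowest value, and 61.5% in WRKY4, the highest. Between proteins, the second domains of WRKY3 and WRKY4 were 98.1% identical and their first domains 94.1%, the closest pair in both comparisons. The second domain of WRKY33 was 88.5% identical to that of WRKY2 and equally to that of WRKY20. That of WRKY25, the other gene past 2-fold, was 76.9% identical to that of WRKY33 and equally to that of WRKY4. Beside these identities stand ratios on opposite sides of 1 for WRKY3 and WRKY4 and for WRKY2 and WRKY33. For WRKY20 the side of 1 changed with the scaling.

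**Figure D2:**
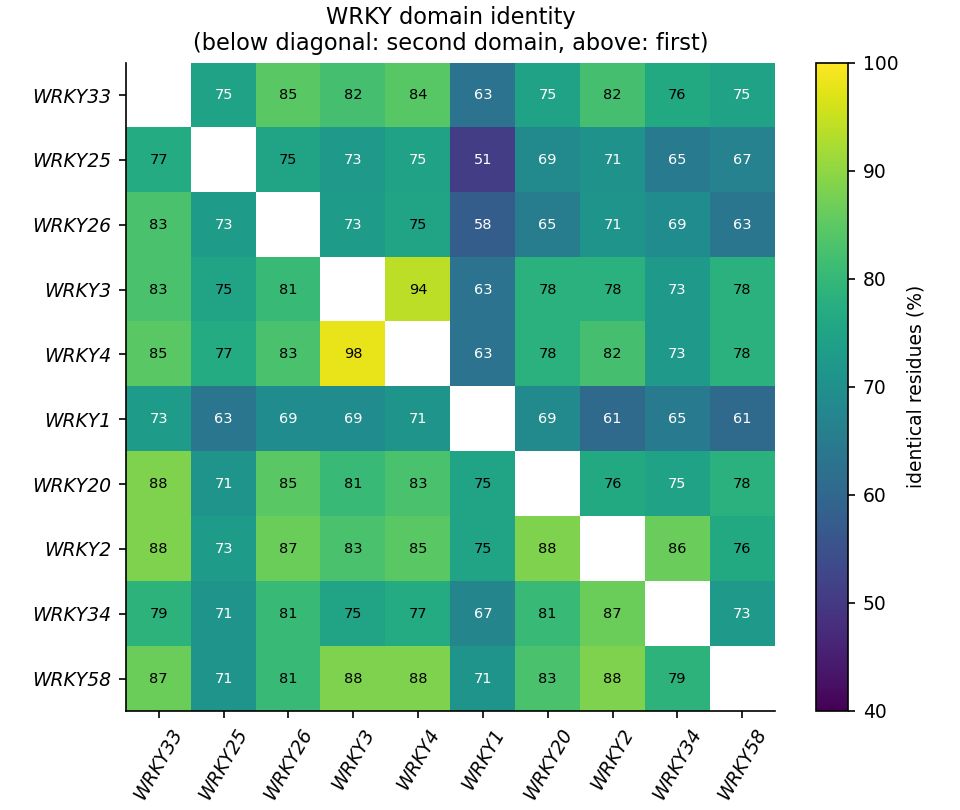
Identity in percent between the WRKY domains of the 10 group I proteins, translated from RefSeq coding sequences, with the first domain above the diagonal and the second below it; colour and number give the share of identical residues. WRKY3 and WRKY4 form the closest pair, at 98.1% in the second domain, and the lowest value, 50.98%, is between the first domains of WRKY25 and WRKY1.

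A further pair of WRKY genes with 2 domains lies outside the 10. WRKY32 (AT4G30935) was at 665 and 1155 reads, or 13.9 and 21.1 RPKM, a ratio of 1.51-fold (1.37 to 1.66), and its window held 2 W boxes. WRKY44 (AT2G37260), known as TTG2 from trichomes and the seed coat, was at 73 and 92 reads, 1.53 and 1.68 RPKM, with a ratio of 1.10-fold (0.797 to 1.51). Both lay within 2-fold.

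The other WRKY groups were set beside group I because all share the DNA-binding domain. Over all genes past the filter, 11.3% were at least 2-fold higher and 8.27% at least 2-fold lower. Of 55 genes of groups IIa to III, 42 passed the filter, and 29 of these (69.05%) were at least 2-fold higher and none at least 2-fold lower, with a median log2 ratio of 1.28 against 0.12 in group I. By group, 2 of 3 were higher in IIa with a median of 3.03, 6 of 8 in IIb with 1.18, 6 of 10 in IIc with 1.14 and 4 of 6 in IId with 1.78. In group IIe it was 3 of 7, with a median log2 ratio of 0.37, and in group III 8 of 8, with 2.25. Of the kept genes, 5 of group III and 3 of group IIc were under 1 RPKM in control seedlings. They passed the filter only through their level with flg22, so none of them could be counted as lower. WRKY54, WRKY55 and WRKY63 of group III and WRKY8 of group IIc were so low in control seedlings that only higher was possible. The 8 of 8 in group III is thus partly set by the filter. In group I no gene passed the filter in that way. WRKY40 of group IIa, a repressor of defence genes, had the highest log2 ratio of any WRKY gene, 5.09, and WRKY33 at 2.999 lay close to WRKY18 of the same group at 3.03. These are descriptions of 1 pair of libraries, and the difference between groups was not tested.

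**Figure D3:**
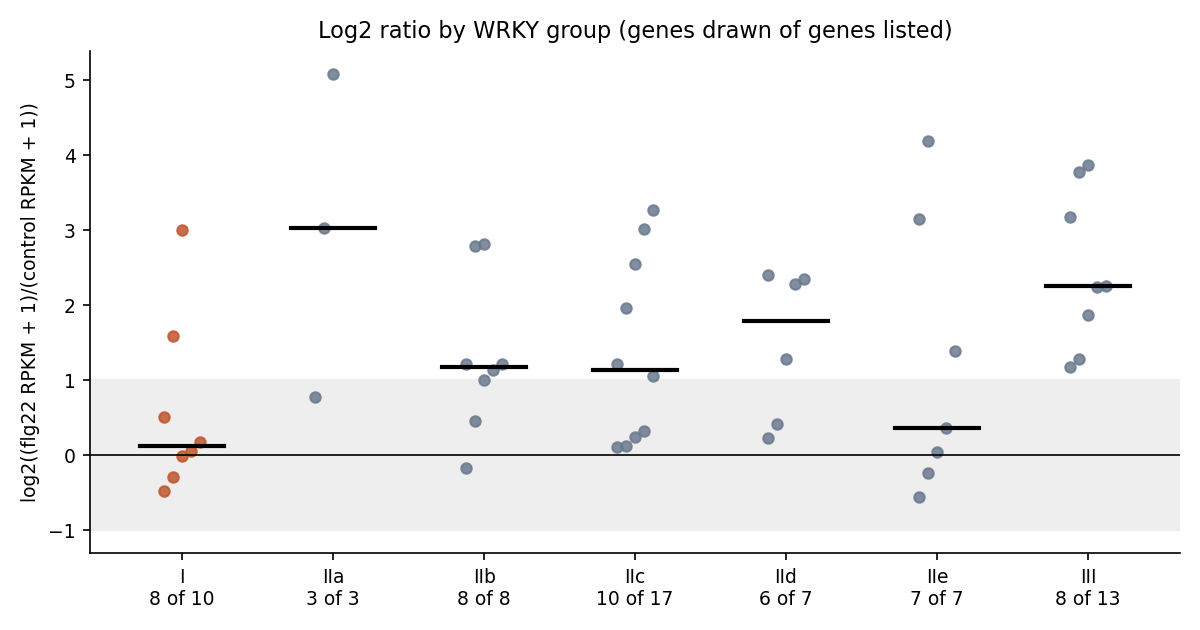
Log2 ratio of flg22 over control, after adding 1 RPKM, of the WRKY genes past the filter, by WRKY group; each point is a gene, the bar is the median, the grey band spans ratios within 2-fold and the axis gives genes drawn of genes listed. In group I, 6 of 8 genes lie within the band, and in group III none of 8 does. Of those 8 in group III, 5 passed the filter only through their level with flg22.

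Genes of the kinase module that acts on WRKY33 were also higher in part. Of 12 such genes, all past the filter, 6 were higher by 2-fold or more and no gene was lower by as much. Their median log2 ratio was 0.89. For this list and those below, the shares over all genes past the filter were 11.3% higher and 8.27% lower, with a median of -0.03. MKK4 and MKK5, the MAP kinase kinases above MPK3 and MPK6, were at log2 ratios of 1.49 and 1.16. MPK3, which phosphorylates WRKY33, was at 38.8 RPKM in control seedlings and 93.4 RPKM with flg22, a ratio of 2.41-fold (2.27 to 2.55). MPK6, its close partner, named outside the rule for named genes, was at 22.1 and 25.6 RPKM, which is 1.16-fold (1.08 to 1.25). MPK4 and MEKK1, of the branch that holds WRKY33 through MKS1, had log2 ratios of 1.09 and 1.02. The calcium-dependent kinase genes CPK6 and CPK5 had log2 ratios of 1.13 and 0.68, and CPK5 is outside that rule. Adding 5 RPKM left 2 of the 12 genes at least 2-fold higher, and scaling by reference genes left 3.

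VQ proteins bind WRKY domains, those of group I and IIc in particular, and modify their activity. Of 34 VQ genes 29 passed the filter, and 16 were higher by 2-fold or more with none lower by as much. Of the 29, 3 passed only through their level with flg22 and 1 only through its level in control seedlings. Among these, VQ29 and AT2G33780 could be counted only as higher. The median log2 ratio of the 29 genes was 1.55. The highest was AT2G22880, annotated as a VQ motif-containing protein, at 41 reads in control seedlings and 2943 with flg22, a log2 ratio of 5.73. VQ29 had 1 read in control seedlings and 293 with flg22, a ratio of 255-fold with an interval as wide as 45.4 to 10099.5. AT4G20000 and CAMBP25 followed at log2 ratios of 3.07 and 2.88. AT2G33780 had 0 and 42 reads, with a counting interval that began at 9.47-fold. It was 12.2-fold higher when 3 reads are put in place of the 0. SIB1, a known activator of WRKY33 binding, was at 3.21 and 11.4 RPKM, 3.54-fold higher (2.63 to 4.83). Its relative SIB2, named outside the rule, was at 7.67 and 7.55 RPKM, with a ratio of 0.984-fold (0.777 to 1.25). MKS1, also outside the rule, was at 6.19 and 22.9 RPKM, or 3.69-fold higher (3.05 to 4.51).

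Among 13 genes known as targets of WRKY33, 12 passed the filter and 10 were at least 2-fold higher, with none lower. Whether WRKY33 activates or represses each of the 13 was not recorded in the list, so the count does not measure its output. Of the 12 genes 6 were under 1 RPKM in control seedlings and passed only through their level with flg22. None of the 6 could be counted as lower, and CYP71A13 and CYP82C2 could be counted only as higher. The median log2 ratio was 3.43. CYP82C2 had 0 reads in control seedlings and 405 with flg22, and its counting interval began at 95.1-fold. With 3 reads in place of the 0 its ratio was 117-fold, and the median with that value was 3.63. PROPEP3 and PROPEP2, precursors of danger peptides, had 7 and 8 reads in control seedlings and 1763 and 515 with flg22, with log2 ratios of 6.47 and 4.04. The camalexin genes CYP71A12 and CYP71A13 were at log2 ratios of 4.40 and 2.98. CYP71A12 and CYP71A13 are related genes close in locus number, and their identity was not calculated. The rule for reads that match both is not stated, so the division of such reads between them is uncertain. PAD3, the last step to camalexin and named outside the rule, was at 10.6 RPKM in control seedlings and 142 RPKM with flg22, 13.4-fold higher (12.1 to 14.9). JAZ1, a jasmonate repressor, had a log2 ratio of 3.81, and the ethylene synthesis genes ACS2 and ACS6 were at 2.87 and 2.99. The genes within 2-fold, both outside the rule, were NCED3 of abscisic acid synthesis, at 4.45 and 4.24 RPKM, and the autophagy gene ATG18A, at 15.6 and 16.0 RPKM. NCED5, also outside it, had 6 and 5 reads and did not pass the filter.

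Heat and oxidative stress genes linked with WRKY25, WRKY26 and WRKY33 were higher in 6 of the 6 cases that passed the filter, of 7 listed. Their median log2 ratio was 2.51. Of the 6, HSFA2 passed only through its level with flg22 and could be counted only as higher. The zinc-finger factor genes ZAT12 and ZAT10 had log2 ratios of 3.78 and 3.39. The heat stress factor gene HSFA2 had 4 reads in control seedlings and 261 with flg22, a log2 ratio of 2.70, and the coactivator gene MBF1C had a log2 ratio of 2.32. HSP101 and the ascorbate peroxidase gene APX1 were at 1.92 and 1.22. HSFB1, outside the rule, was listed at 0 in both libraries. Since the counting rule is not stated, this 0 does not show that the gene was silent.

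Of 7 pollen and embryo genes linked with WRKY2 and WRKY34, 2 passed the filter. ABI5, a factor of abscisic acid signalling in seeds and seedlings, was at 3.60 RPKM in control seedlings and 10.5 RPKM with flg22, 2.91-fold higher (2.49 to 3.40). GPT1, a plastid sugar phosphate transporter gene outside the rule, was at 23.8 and 20.6 RPKM. WOX8, a zygotic target of WRKY2 also outside the rule, had 0 reads in both libraries. In the list of 12 reference genes, 1 was at least 2-fold higher, the ubiquitin-conjugating enzyme gene UBC9 at a log2 ratio of 1.70, none was lower, and the median was 0.14.

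**Figure D4:**
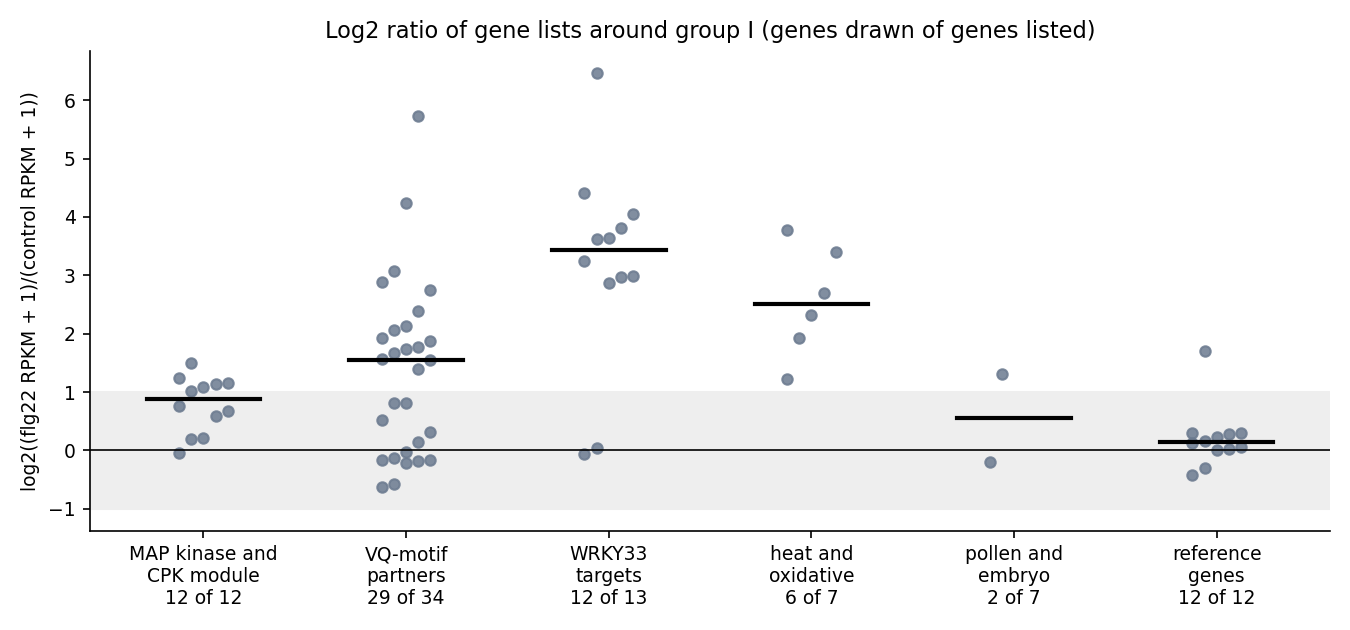
Log2 ratio of flg22 over control, after adding 1 RPKM, of genes past the filter in the lists around the group I factors; each point is a gene, the bar is the median and the grey band spans ratios within 2-fold. The WRKY33 target list has the highest median, 3.43, with NCED3 and ATG18A near 0, and 11 of 12 reference genes lie within the band. The target list does not record whether WRKY33 activates or represses each gene.

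W boxes and ratios were last set side by side over the 18642 genes past the filter that have a window, 82 having none, as a description of these libraries. Of 12656 genes with no box in the 300 bases, 8.60% were at least 2-fold higher, and of 4545 genes with 1 box 14.1% were. With 2 boxes it was 23.4% of 1158 genes, and with 3 or more, the class that holds WRKY33, 38.5% of 283 genes. The shares at least 2-fold lower were 9.03%, 6.95%, 6.13% and 4.95% in the same classes. Genes under 1 RPKM in control seedlings passed the filter only through their level with flg22 and could not be counted as lower. Their number in each class was not calculated. Within group I, WRKY33 had 3 boxes and the highest ratio. WRKY25, WRKY26 and WRKY20, with 1 box each, had ratios of 3.15-fold, 1.46-fold and 0.990-fold. Without a box, WRKY4, WRKY1, WRKY2 and WRKY3 had ratios of 1.15-fold, 1.04-fold, 0.793-fold and 0.707-fold. The direction of WRKY20 and of WRKY1 changed with the scaling. WRKY34 and WRKY58, also without a box, did not pass the filter. WRKY32, outside the 10, had 2 boxes and a ratio of 1.51-fold.

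**Figure D5:**
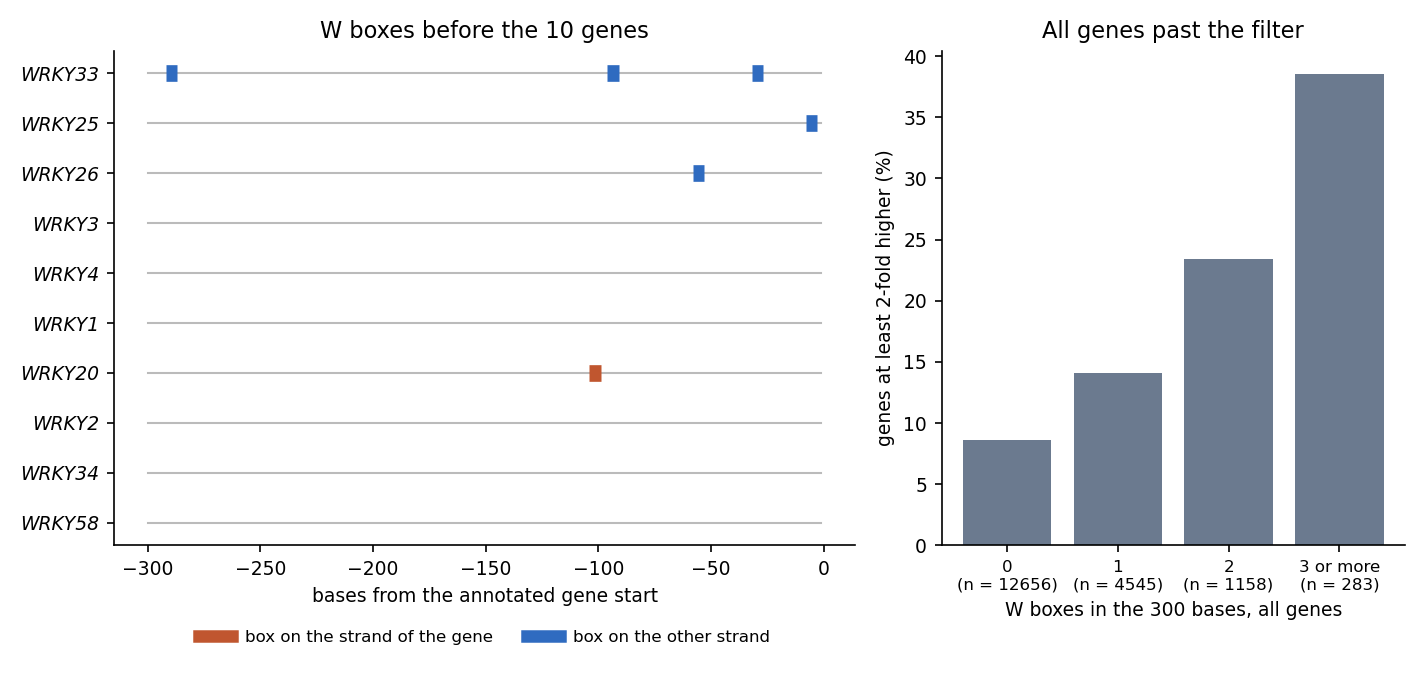
Positions of W boxes (TTGACC or TTGACT) in the 300 bases before the annotated start of the 10 group I genes (left, by strand) and the percentage of filtered genes with a window at least 2-fold higher with flg22 by number of boxes in that window (right). WRKY33 has 3 boxes, and the share is 8.60% of genes with no box and 38.5% of genes with 3 or more.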

How the data were processed

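The data are 1 control and 1 flg22 library of whole seedlings, grouped by the treatment label. Per the file headers the authors deposited whole-number read counts and RPKM for each gene and library, and a comparison with a log2 fold change and an FDR, a form of adjusted p-value. Bowtie, TopHat and DESeq are named in the submitters' processing notes, as is the genome build TAIR10. The counting program, strand setting and rule for shared reads are not stated there or in the labels. Among 21305 genes whose span in RefSeq's TAIR10.1 annotation exceeds their joined exons, the length used for RPKM was nearer to the span for 74.9% and nearer to the exons or level for the rest. Another 2 per-sample columns were not used.

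From the deposited counts, ratios of reads per column total were computed with exact conditional binomial (Clopper-Pearson) 95% intervals, and from RPKM log2 ratios after adding 1 RPKM. Genes averaging 1 RPKM or more over the libraries were kept. For a count of 0, 3 reads per library stood in as a floor. Without molecular identifiers, these intervals and floors reflect counting error alone. The tools were Python 3.11.15, pandas 2.3.3, scipy 1.17.1 and Biopython 1.88, and edgeR 4.0.16 served only for TMM factors (a scaling of library totals). The calculations were tested on simulated data. Gene names and sequences came from RefSeq TAIR10.1, in which 26719 identifiers were found.

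The text names the 10 genes, WRKY32 and WRKY44, FRK1, and in each list up to 4 genes with the highest and 4 with the lowest log2 ratio among those past 2-fold. Others are said to be outside this rule. The members and all lists were chosen with earlier results of these data known, so no list is independent support. Alternatives were other added constants, filters, fold limits, scalings and the joined exon length.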

Additional observations from a re-analysis of the deposited data

How the results depend on the processing

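No paired analysis was possible because each group is 1 pooled library, which also leaves no replicate to leave out. At a fold limit of 4, 1 group I gene was higher instead of 2, and no other setting tried changed the number higher or lower. For the lists, adding 5 RPKM gave 2 kinase genes higher and 0 pollen and embryo genes higher, scaling by the reference genes gave 3 kinase genes higher, and adding 0.1 RPKM gave 1 VQ gene lower. No sign of a called value changed. TMM, median-of-ratios and reference gene scaling shifted every ratio of reads per total by 0.02, 0.04 and -0.15 on the log2 scale. Under the last, the median log2 ratio after adding 1 RPKM over all genes was -0.15, against -0.03 as reported. That scaling put 1848 genes past 2-fold as higher and 1977 as lower, against 2111 and 1548 as reported. WRKY33 stayed between 7.53 and 8.58-fold over the scalings. The joined exon length moved the level of 7 of 8 genes beyond counting error in each library. Depth limits WRKY34 and WRKY58 most.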

Other observations

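Some WRKY genes outside group I were almost uncounted in control seedlings and clearly counted with flg22, and were picked out here after their values were seen. WRKY8 of group IIc had 5 and 371 reads, a ratio of 64.5-fold (27.4 to 200). WRKY55 of group III, next to WRKY54 in locus number, had 2 and 145 reads, 63.1-fold (17.1 to 526). WRKY63 of the same group, one of a cluster of similar neighbouring genes whose shared reads cannot be assigned here, had 5 and 123 reads, 21.4-fold (8.92 to 67.1). Among the group I genes none showed such a pattern, since WRKY34 and WRKY58 were at or under 3 reads in both libraries.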
